A study of Mus musculus with 6 samples.

Results

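FXR binding in mouse liver fell in part on long terminal repeat (LTR) elements, and these sites were taken from both deposited peak lists as the peaks whose detailed annotation places the peak centre in a repeat of class LTR. The control list held 1110 such peaks among 20040 (5.54%, 95% Wilson interval 5.23 to 5.86) and the list from livers without hepatocyte BCL6 held 560 among 12495 (4.48%, 4.13 to 4.86), or 1670 LTR peaks of 32535 in all. FXR was mapped by ChIP-seq in livers of male C57BL/6 mice of 2 genotypes. Bcl6 fl/fl mice, written WT, carry floxed Bcl6 alleles and keep BCL6, whereas Bcl6 LKO mice, written LKO, carry the same floxed alleles with an albumin-Cre transgene that deletes Bcl6 in hepatocytes only, so that the other liver cells keep it. Each genotype had 2 ChIP libraries and 1 input library, no agent is named in the labels, and the age of the mice is not given there. The comparison addressed how far FXR occupies the same sites when hepatocytes lack BCL6, a transcriptional repressor.

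LTRs are the terminal repeats of endogenous retroviruses, which copied themselves through the genome and left many related sequences behind. A complete LTR holds the promoter and enhancer of the virus, and some LTR families carry ready-made binding sites for host transcription factors. FXR, encoded by Nr1h4, is the nuclear receptor for bile acids and binds with its partner RXR to an inverted repeat of the hexamer AGGTCA with a single-base spacer, called IR1. The direct repeat with the same spacer, DR1, is bound by other liver receptors such as HNF4A, PPARA and RXR dimers.

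The motif searches that follow allowed 2 mismatches in the 12 bases of the hexamers, on both strands and within 100 bp of the peak centre. Sequences were read from the GRCm38.p6 assembly, which shares its coordinates with mm10, and are shown 5′ to 3′ with 1-based positions.

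The subfamily RLTR13D3A1, of the ERVK family, held more IR1 motifs than any other subfamily, so its 8 strongest WT peaks with the motif are given, leaving out 1 chromosome that is not shown, with 15 bases to each side of the motif. Each is named by the gene that the authors' annotation assigned to it, capitals mark the 13 positions of the IR1 motif, and all are turned to the same orientation.
H13 (chr2:152666902-152666944, + strand): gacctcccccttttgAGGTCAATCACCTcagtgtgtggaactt
Slc22a6 (chr19:8616555-8616597, - strand): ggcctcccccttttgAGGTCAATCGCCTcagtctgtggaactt
4932414J04Rik (chr11:21516133-21516175, - strand): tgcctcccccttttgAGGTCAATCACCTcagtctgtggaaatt
Akr1d1 (chr6:37543082-37543124, + strand): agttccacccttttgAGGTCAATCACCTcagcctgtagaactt
Scp2 (chr4:108130975-108131017, - strand): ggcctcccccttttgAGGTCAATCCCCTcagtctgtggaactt
Caly (chr7:140068194-140068236, - strand): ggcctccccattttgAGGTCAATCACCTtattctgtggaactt
Scarb2 (chr5:92521799-92521841, + strand): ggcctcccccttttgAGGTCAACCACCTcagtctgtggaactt
Kyat3 (chr3:142720041-142720083, + strand): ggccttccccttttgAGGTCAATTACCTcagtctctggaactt

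In all 8 the first hexamer was intact and the departures lay in the second one. Counted from 1 at the first base of the motif, G9C occurred in 14 of the 17 WT peaks of the subfamily compared, A10G in 7 and A10C and G9T in 2 each. Over the 40 bases nearest to the motif, WT peaks of RLTR13D3A1 with the motif matched each other at a median of 87.5% of positions (lowest pair 30.0%, highest 100%). For IR1 peaks of different LTR subfamilies the median was 30.0%. Subfamilies are defined by sequence similarity, so a higher identity within one follows from its definition.

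DR1 motifs recurred within RMER19B and RMER12, both of the ERVK family, and within MERV1_LTR of the ERV1 family. The 3 strongest WT peaks with the motif are shown for each, with the 13 positions of the DR1 motif in capitals and on the strand that carries it.
RMER19B, Gm6559 (chr6:51357332-51357374, - strand): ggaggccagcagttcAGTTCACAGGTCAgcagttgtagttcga
RMER19B, Nlrc5 (chr8:94455152-94455194, - strand): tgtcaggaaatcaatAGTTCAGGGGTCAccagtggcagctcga
RMER19B, Srsf7 (chr17:80172070-80172112, + strand): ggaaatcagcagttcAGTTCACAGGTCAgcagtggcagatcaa
RMER12, Zyg11a (chr4:108225615-108225657, + strand): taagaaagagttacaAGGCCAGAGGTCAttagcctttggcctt
RMER12, Twf1 (chr15:94582464-94582506, + strand): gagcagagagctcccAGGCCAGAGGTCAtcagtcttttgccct
RMER12, Gstk1 (chr6:42241813-42241855, - strand): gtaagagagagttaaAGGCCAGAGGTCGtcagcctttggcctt
MERV1_LTR, Cga (chr4:34901262-34901304, + strand): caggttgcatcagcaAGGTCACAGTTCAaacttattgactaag
MERV1_LTR, P2ry1 (chr3:60941704-60941746, - strand): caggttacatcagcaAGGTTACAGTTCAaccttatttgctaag
MERV1_LTR, Cntnap5b (chr1:100385238-100385280, + strand): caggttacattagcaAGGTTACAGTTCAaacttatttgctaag

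Each subfamily had its own departure from the DR1 consensus. G3T was present in 11 of 11 RMER19B peaks compared, T4C in 6 of 7 RMER12 peaks, and C5T and G10T in 8 of 9 MERV1_LTR peaks each. Median identity around the motif was 65.0% in RMER19B, 47.5% in RMER12 and 87.5% in MERV1_LTR (lowest pairs 42.5%, 22.5% and 45.0%). Identity between subfamilies was not computed for DR1.

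A single WT LTR peak held IR1 with no mismatch. It lay in an LTR103b_Mam element assigned to Cnn3, which encodes an actin-binding calponin, and its site is shown with 10 bases to each side.
Cnn3 (chr3:121378818-121378850, + strand): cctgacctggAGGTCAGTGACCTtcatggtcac

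The authors called peaks after pooling a genotype's ChIP libraries, so the lists have no replicate spread, and the intervals on shares cover counting error over peaks only. The ChIP libraries held 19022618 and 2883717 tags in WT and 21287263 and 22637613 in LKO, and the inputs held 6964271 and 6935001, so that WT replicate 2 was the shallow library. All 8 hepatocyte marker genes checked (Alb, Apoa1, Apob, Ttr, Hnf4a, Cps1, Serpina1a and Tat) had an assigned FXR peak in both lists. Of 8 markers of other liver cells, 2 had one in WT (Pecam1 and Stab2) and 0 in LKO. The share of all genes with an assigned peak was not computed, so these counts have no background to be read against. The LKO list also held fewer peaks in all, 12495 against 20040. Peaks carry no information on the number of cells of each type, and fewer cells of a type cannot be told apart from less binding per cell.

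LTR peaks spread over many elements. The WT members belonged to 302 subfamilies, of which 137 had a single peak, and the LKO members to 210, of which 113 had a single peak. The ERVL-MaLR, ERVK, ERVL and ERV1 families made up 98.6% of the WT and 99.3% of the LKO members. In WT these families held 394, 384, 164 and 153 peaks (35.5%, 34.6%, 14.8% and 13.8%). In LKO they held 180, 193, 105 and 78 peaks (32.1%, 34.5%, 18.8% and 13.9%). SINE elements, for comparison, held 1325 WT and 730 LKO peaks, and LINE elements 554 and 287. Without a map of all LTR copies these counts say nothing of enrichment over the genome.

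The subfamilies with most WT peaks were MTD with 58, ORR1F with 35, RLTR20C2_MM with 29, RLTR13D3A1 with 28, RMER10B with 26, RMER19B with 23, MTEa with 22, ORR1E with 21, MTC with 20 and RMER15 with 17. In LKO, with 560 LTR peaks against the 1110 of WT, MTD held 29 peaks, RMER10B 23, RLTR13D3A1 21, RMER15 16, ORR1F 15, RMER19B 13 and RLTR20C2_MM 9. As a share of the LTR peaks of its list, RMER10B made up 2.34% in WT and 4.11% in LKO, and RLTR20C2_MM 2.61% and 1.61%. The lists differ in length, and these shares were not tested.

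**Figure D1:**
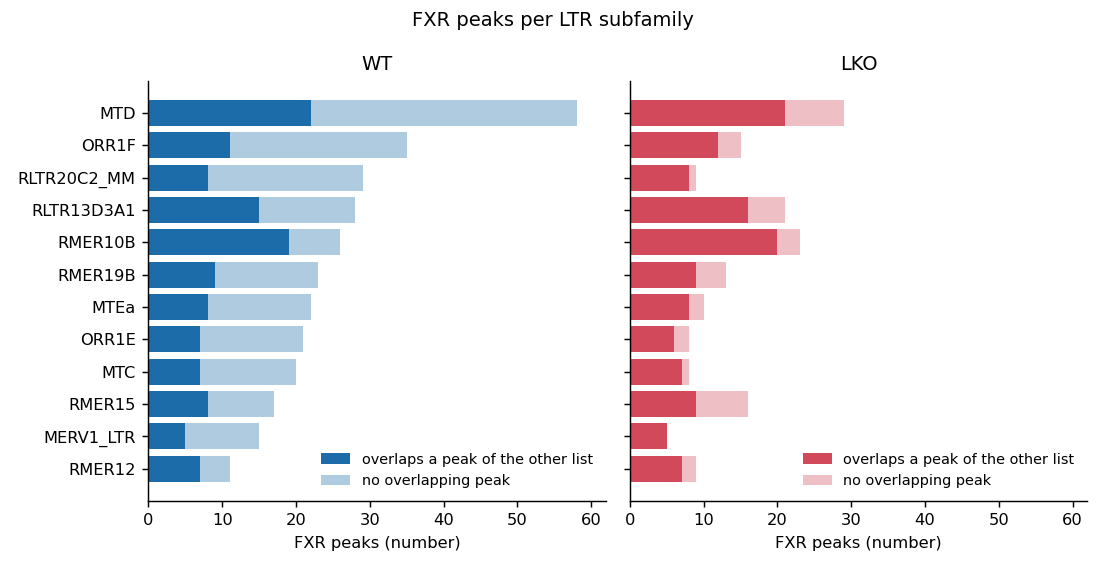
Number of FXR peaks (horizontal axis) in the 10 LTR subfamilies with most WT peaks and in MERV1_LTR and RMER12, for the WT list (blue) and the LKO list (red). Dark bars are peaks that overlap a peak of the other list and pale bars are the rest: 19 of 26 RMER10B peaks but 8 of 29 RLTR20C2_MM peaks of the WT list overlapped an LKO peak.

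By the authors' annotation, which ranks promoters and exons first, LTR peaks were either intergenic or intronic. In WT 695 (62.6%) were intergenic, against 41.7% of the other intergenic and intronic peaks, and in LKO 349 (62.3%) were, against 40.8%. Their median distance to the nearest transcription start site was 21.2 kb in WT and 22.8 kb in LKO, against 19.4 kb and 19.8 kb for those other peaks. Within 20 kb of a start site lay 545 WT members (49.1%) and 262 LKO members (46.8%). The WT members were assigned to 1004 genes and the LKO members to 524.

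Reads that match several places in the genome had been discarded, which matters for repeats of recent origin. The 31 bases at the peak centre occurred once in the assembly for 92.4% of WT LTR peaks (90.7 to 93.8) and 98.8% of WT peaks outside LTRs (98.6 to 98.9). In LKO the shares were 95.4% (93.3 to 96.8) and 99.1% (98.9 to 99.2). RLTR13D3A1 had such a centre at 16 of its 28 WT and 19 of its 21 LKO peaks, and RMER10B at 23 of 26 and 20 of 23. The reads were longer than 31 bases, so a repeated centre does not by itself mean that its reads were discarded. Reads from copies identical over a read's length were discarded, and how much binding this hides was not measured.

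LTR peaks were slightly weaker than other peaks in WT. On the log2 scale of the deposited tables, a regularized log2 tag number that is comparable within a table only, WT LTR peaks had a median of 4.15 in replicate 1 (range 2.30 to 7.91) and 4.81 in replicate 2 (2.57 to 8.84). WT peaks outside LTRs had medians of 4.35 and 4.92, so the difference was -0.21 in replicate 1 and -0.11 in replicate 2 (-0.16 ± 0.07, SD, n = 2). LKO LTR peaks had medians of 4.87 (3.21 to 8.34) and 4.69 (3.0 to 8.35), and the difference from other LKO peaks was 0.01 in each library (0.01 ± 0.01, SD, n = 2). Both values are small beside the spread among members, whose quartiles were 3.53 and 4.92 in the first WT library and 4.29 and 5.54 in the first LKO library. LINE peaks were below the peaks outside LTRs in every library, by -0.28 and -0.18 in WT and by -0.15 and -0.16 in LKO. SINE peaks were below them as well, by -0.14 in each WT library and by -0.07 and -0.04 in LKO. No test was made, because the lists had been selected on these levels.

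Converted with the library totals, the median LTR peak corresponded to about 35 and 8 tags in the WT libraries and 37 and 34 in the LKO libraries. This conversion treats the regularized values as plain log2 tag numbers, so it is approximate. The values of WT replicate 2 thus carry the most counting error. The deposited peak score, a pooled tag signal scaled by the authors, had a median of 22.4 for WT LTR peaks and 25.1 for other WT peaks, and of 17.1 for both in LKO. The focus ratio, the fraction of tags on the side of the centre that a point source would give, had medians of 0.827 against 0.815 in WT and 0.840 against 0.816 in LKO.

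Input signal was low at most LTR sites. Input values fell into bands, with a gap from 0.36 to 0.96 in WT and from 0.60 to 1.59 in LKO, and the median LTR value, -0.42 in WT and -0.03 in LKO, lay in the lowest band. Above the gap were 278 of 1110 WT LTR peaks (25%, 22.6 to 27.7) and 30.1% of other WT peaks (29.5 to 30.8). In LKO 147 of 560 were above it (26.2%, 22.8 to 30.0), against 28.0% (27.2 to 28.8). Above the 95th percentile of input of the whole list, passed by 5.00% of all peaks in WT and 5.00% in LKO, lay 32 WT LTR peaks (2.88%, 2.05 to 4.04) and 20 LKO LTR peaks (3.57%, 2.32 to 5.45). The shares of the other intergenic and intronic peaks were 3.84% and 3.95%. Each 95th percentile, 1.85 in WT and 2.49 in LKO, fell inside a band. WT input was 1.79 at the Pou6f1 site (ChIP 4.79 and 4.97) and 1.91 at the Nr1i2 site (7.79 and 8.60). LKO input was 2.43 at the Odaph site (4.65 and 4.61) and 2.52 at the 5031425F14Rik site (6.92 and 6.71). The shares above the 95th percentile can therefore also depend on ChIP level. Among the peaks kept, LTR peaks thus did not pass these input limits more often than other peaks. The authors had filtered peaks on enrichment over input, so LTR sites with high input could have been removed beforehand. Nothing follows for LTR sites outside the lists.

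The 3 LTR peaks with the highest input in each list can be named. The highest WT input, 2.97, was at an RLTR13D3A1 peak 2308 bp from the start of Mroh2a (chr1:88224607-88224817), whose ChIP values were 7.13 and 7.96. Its central 31 bases occur 47 times in the assembly, and no LKO peak overlapped it. MER92B near Gpatch3 followed with an input of 2.67 (ChIP 6.58 and 7.15), then RLTR13D3A1 near Caly with 2.66 (6.07 and 6.49). In LKO the highest input, 4.90, was at an RMER4B element assigned to Pisd-ps1 (chr11:3147554-3147758), with ChIP values of 7.71 and 7.64. This was also the strongest LKO LTR peak without a WT counterpart. An ORR1F peak near Ptpn2 and an MLT1B peak assigned to Dct each had an LKO input of 3.38, and both overlapped a WT peak whose input was -0.19 and -0.26.

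Fewer LTR peaks than other peaks of the WT list had a counterpart in LKO. Peaks of the 2 lists were called overlapping when they shared at least 1 bp, which 49.5% of all WT peaks and 79.4% of all LKO peaks did. Of the WT LTR peaks 451 of 1110 did so (40.6%, 37.8 to 43.5), against 50% of the list outside LTRs (49.3 to 50.7) and 49.8% of the other intergenic and intronic ones (49.0 to 50.6). SINE and LINE peaks were near the LTR value in WT, at 43.1% (40.5 to 45.8) and 40.8% (36.8 to 44.9). Of the LKO LTR peaks 436 of 560 overlapped a WT peak (77.9%, 74.2 to 81.1), against 79.4% of the list outside LTRs (78.7 to 80.2). The overlapping pairs numbered 414 with both peaks in an LTR, 411 of them in the same subfamily, plus 37 with only the WT peak and 22 with only the LKO peak so annotated.

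The shares varied with strength. WT LTR peaks with an LKO counterpart had median log2 levels of 4.99 and 5.59 in the 2 libraries, and those without had 3.73 and 4.41. Taking for each WT LTR peak the overlap share of all WT peaks in its decile of strength gives 45.7%, above the 40.6% seen but below the 49.7% that the same sum gives for WT peaks outside LTRs. The difference was widest in the fifth decile, where 32 of 119 LTR peaks overlapped (26.9%, 19.7 to 35.5) and 42.2% of the others did (40.0 to 44.5). In the tenth decile the shares were 94.5% (87.8 to 97.6) and 95.3% (94.3 to 96.2). In LKO the sum over deciles gave 79.1% for LTR peaks, against the 77.9% seen.

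**Figure D2:**
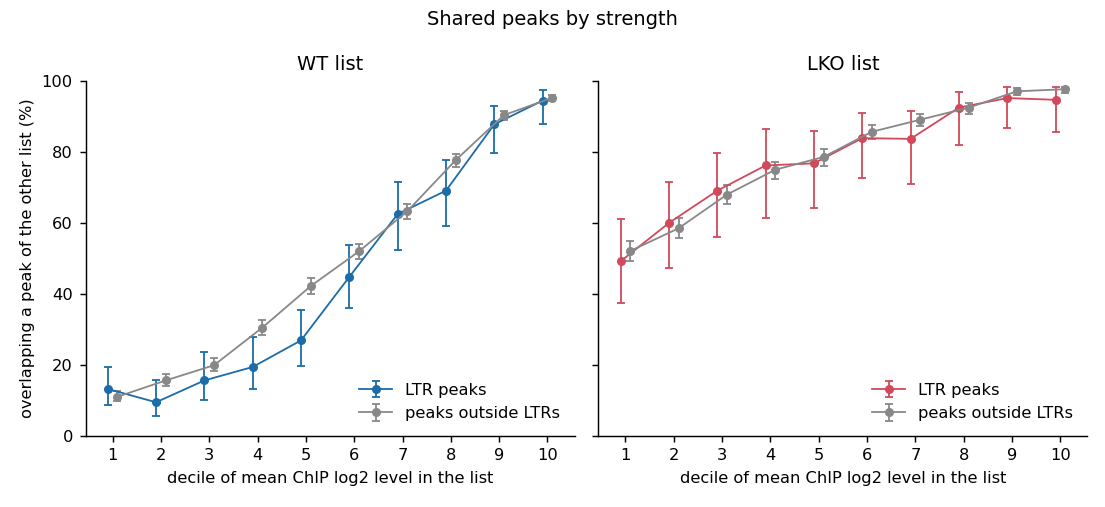
Share of peaks that overlap a peak of the other list (vertical axis, percent) by decile of mean ChIP log2 level within the list (horizontal axis), for LTR peaks (coloured) and peaks outside LTRs (grey); bars are 95% Wilson intervals. WT LTR peaks lie under the grey line from the second decile on, with 9.45% against 15.6% in the second and 62.5% against 63.3% in the seventh, and in LKO all 10 intervals of LTR peaks include the grey points.

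Families and subfamilies differed in how often they were shared. Among WT peaks the share was 50.6% for ERVL (43.0 to 58.2), 44.4% for ERV1 (36.8 to 52.4), 39.6% for ERVK (34.8 to 44.6) and 36.5% for ERVL-MaLR (31.9 to 41.4), where neighbours in this order have overlapping intervals. In LKO the 4 families lay between 76.7% and 79.5%. Of single subfamilies, RMER10B had an LKO counterpart at 19 of 26 WT peaks (73.1%, 53.9 to 86.3), MERV1_I-int at 8 of 12 and RMER12 at 7 of 11. MLTR11B had one at 6 of 10, MLTR14 at 9 of 16 and RLTR13D3A1 at 15 of 28 (53.6%, 35.8 to 70.5). Among subfamilies with 10 or more WT peaks the low end was held by RLTR20C2_MM with 8 of 29 (27.6%, 14.7 to 45.7), MTE2b with 3 of 15 and RMER10A with 2 of 10. WT LTR peaks with IR1 were shared in 60.6% of cases (52.3 to 68.2) and those without in 37.7% (34.7 to 40.8). The same split was 70.0% and 47.3% for WT peaks outside LTRs.

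IR1 was about as frequent in LTR peaks as in other peaks. It was found in 142 of 1110 WT members (12.8%, 11 to 14.9), where all WT peaks gave 11.8%, and in 101 of 560 LKO members (18%, 15.1 to 21.4), where all LKO peaks gave 16.2%. In windows of the same size 2 kb away from the LTR peaks the share was 0.991% in WT and 1.34% in LKO. The motif lay close to the centre of the peak, at a median of 15 bp in WT and 13 bp in LKO. Members with IR1 were stronger, with median log2 levels of 4.90 and 5.41 in WT against 4.09 and 4.75 for members without it, and of 5.43 and 5.26 against 4.76 and 4.61 in LKO. DR1 was present in 153 WT members (13.8%, 11.9 to 15.9; all WT peaks 12.8%) and 78 LKO members (13.9%, 11.3 to 17.0; all LKO peaks 11.9%), against 2.34% and 3.30% in the windows 2 kb away.

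These averages hide large differences between subfamilies. RLTR13D3A1 had IR1 at 19 of 28 peaks in WT (67.9%, 49.3 to 82.1) and at 16 of 21 in LKO (76.2%, 54.9 to 89.4), so that this subfamily with 2.52% of the WT members held 19 of the 142 IR1 sites. The next were RMER12 with 27.3% (9.75 to 56.6), RMER10B with 26.9% (13.7 to 46.1), MTC with 20% (8.07 to 41.6) and RLTR20C2_MM with 17.2% (7.60 to 34.5), whose intervals include the WT average except for RMER10B. DR1 was found at 7 of 11 RMER12 peaks (63.6%, 35.4 to 84.8), 9 of 15 MERV1_LTR peaks (60.0%, 35.7 to 80.2) and 12 of 23 RMER19B peaks (52.2%, 33.0 to 70.8) of the WT list. RLTR13D3A1 had DR1 at 1 of 28, and MERV1_LTR had IR1 at 0 of 15. MTD, the subfamily with most peaks, had IR1 at 4 of 58 and DR1 at 10 of 58. Which subfamilies to single out was decided after these shares had been seen.

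**Figure D3:**
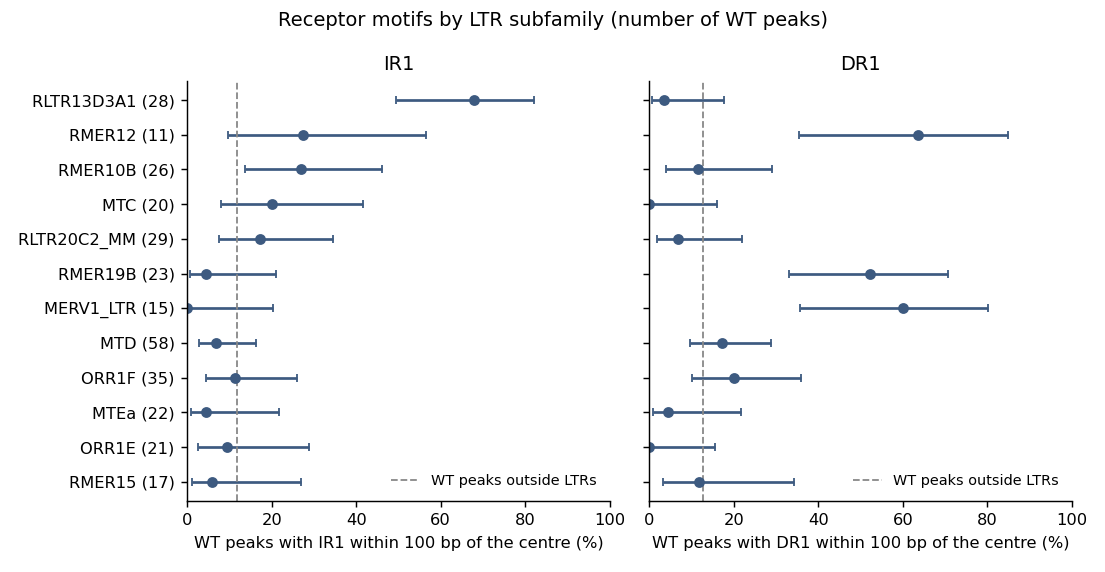
Share of WT peaks with IR1 (left) and DR1 (right) within 100 bp of the peak centre (horizontal axis, percent) by LTR subfamily, with the number of WT peaks in brackets; bars are 95% Wilson intervals and the dashed line is the share among WT peaks outside LTRs. RLTR13D3A1 stands at 67.9% for IR1, and RMER12, MERV1_LTR and RMER19B stand at 63.6%, 60.0% and 52.2% for DR1.

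Further motifs of liver factors were matched without mismatch. The forkhead motif TGTTTAC was found in 5.86% of WT LTR peaks (4.62 to 7.40) and 6.76% of other WT peaks, and in 8.21% (6.21 to 10.8) and 6.68% in LKO. The C/EBP-like TTGCNNAA was in 17.6% (15.4 to 19.9) and 16.5% in WT, and in 15% (12.3 to 18.2) and 15.2% in LKO. TTCNNNGAA, the palindrome read by STAT proteins and, in its wider form, by BCL6, was in 102 WT LTR peaks (9.19%, 7.63 to 11) and in 6.41% of other WT peaks (6.07 to 6.77). In LKO it was in 36 LTR peaks (6.43%, 4.68 to 8.77) and 6.38% of the others. In windows 2 kb away from the WT LTR peaks it was in 6.67% (5.70 to 7.78). The motif is short and can overlap the other motifs.

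For RLTR13D3A1 the copies in the genome were also counted, by searching the assembly for the 20 bases on either side of the motif with up to 10 mismatches in the 40 bases and without use of the motif itself. Of 210 copies, 17 lay in a WT peak and 17 in an LKO peak (8.10%, 5.12 to 12.6, for each list). Of the 25 copies with 1 mismatch to IR1, 7 lay in a WT peak and 7 in an LKO peak (28.0%, 14.3 to 47.6). Of the 85 copies with 2 mismatches, 8 were in a WT peak (9.41%, 4.85 to 17.5) and 6 in an LKO peak (7.06%, 3.28 to 14.6), and of the 48 with 3 mismatches, 2 (4.17%, 1.15 to 14.0) and 4 (8.33%, 3.29 to 19.6). Of the 52 copies with 4 or more mismatches, 0 were in a peak of either list, which allows a share of up to 5.77%. Around the motif, 31 bases were unique in the assembly for 18, 48, 31 and 42 copies of these 4 classes. Of those, 6, 3, 1 and 0 were in a WT peak and 6, 3, 4 and 0 in an LKO peak. The flanks searched for came from bound copies that carry the motif, which favours finding such copies, and no test was made. The WT list held 28 RLTR13D3A1 peaks, so the 17 copies found in a WT peak do not cover them all. The shares hold for the copies found, not for all copies of the subfamily.

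**Figure D4:**
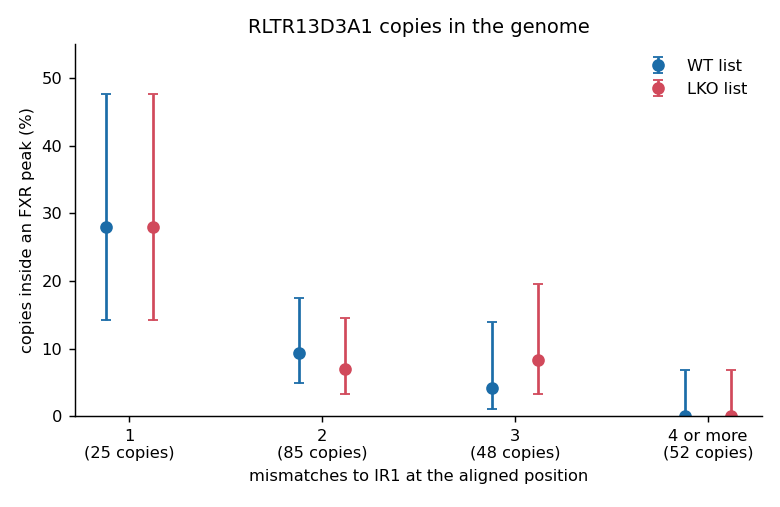
Share of the RLTR13D3A1 copies found by the flank search that lie inside an FXR peak (vertical axis, percent). The horizontal axis is the number of mismatches to IR1 at the aligned position, with the number of copies in brackets. The WT list is blue and the LKO list red, and bars are 95% Wilson intervals. The share is 28.0% at 1 mismatch in both lists and 0 from 4 mismatches on.

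The same search gave 1321 copies for RMER19B, of which 9 lay in a WT and 7 in an LKO peak. All 9 were among the 882 copies with DR1 (1.02%, 0.538 to 1.93), and 0 of the 439 copies without it were in a peak, which allows a share of up to 0.683% and so reaches into the interval of the copies with DR1. For RMER12, 4 of 18 copies with DR1 (22.2%, 9.0 to 45.2) and 0 of 15 without it lay in a WT peak, and the latter allows a share of up to 20%, also within that interval. For MERV1_LTR, 8 of 200 copies with DR1 (4.0%, 2.04 to 7.69) and 3 of 149 without it (2.01%, 0.687 to 5.75) were in a WT peak, which are shares with overlapping intervals. The WT list held 23 RMER19B, 11 RMER12 and 15 MERV1_LTR peaks, against 9, 4 and 11 copies found in a WT peak. RMER12 copies with 1 and 2 mismatches to DR1 had medians of 9 and 8.5 flank mismatches, near the limit of 10. These shares too hold for the copies found only.

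The strongest LTR peak of both genotypes lay in an MTEb element in an intron of Scarb1, the gene of the hepatic HDL receptor, 27580 bp from its start (chr5:125313409-125313619). Its log2 level was 7.91 and 8.84 in WT and 8.34 and 8.35 in LKO, with inputs of 0.13 and 0.51. The searches above found neither IR1 nor DR1 at this site. An ORR1B1 element in an intron of Nr1i2, which encodes the xenobiotic receptor PXR, was second in WT (chr16:38279864-38280074; 7.79 and 8.60, with 7.88 and 7.64 in LKO). RMER17D2 was far from any gene, 241008 bp from Gm17634 (chr1:105114894-105115104; 7.76 and 8.62 in WT, 8.04 and 8.22 in LKO). MERV1_I-int near Apol7a, an apolipoprotein L gene, had 7.79 and 8.59 in WT and 8.12 and 7.81 in LKO (chr15:77377568-77377778). RLTR14, 138112 bp from Nampt, the enzyme of NAD salvage, carried IR1 with 2 mismatches and had 7.55 and 8.43 in WT and 8.05 and 8.15 in LKO (chr12:32682118-32682328). WT input was 1.91 at both the Nr1i2 and the Apol7a site, above the WT 95th percentile of 1.85. It was 1.26 at the Gm17634 site and 1.24 at the Nampt site. In LKO the LTR103b_Mam site near Cnn3 with the exact IR1 came second, at 8.27 and 8.19 (7.40 and 8.25 in WT).

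Of the sites with IR1 of at most 1 mismatch, the strongest in WT after Cnn3 were RLTR13D3A1 near Wac (6.52 and 7.21 in WT, 7.26 and 7.11 in LKO) and RLTR30D2_MM near Cdh15 (6.69 and 7.04, then 7.10 and 7.03), followed by H13, Ppp4r3a in an MTD element (6.18 and 7.09, then 6.65 and 6.17), 4932414J04Rik and Akr1d1. The eighth was MTE2a near Nckap5 (5.59 and 7.22, then 4.96 and 5.19).

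By family, the strongest shared peaks were Scarb1 for ERVL-MaLR, Gm17634 for ERVK, HERVL74-int near Gramd1c for ERVL (7.39 and 8.15 in WT, 7.41 and 6.97 in LKO) and Apol7a for ERV1. The strongest WT peaks without an LKO counterpart were the Mroh2a site, RLTR20C2_MM near 1700034H15Rik (6.80 and 7.65) and MTC near Srd5a1, a steroid reductase gene (5.96 and 7.12, IR1 with 2 mismatches). In LKO they were the Pisd-ps1 site, MTE2b near 5031425F14Rik (6.92 and 6.71, input 2.52) and MERVK26-int near Sult3a2, a sulfotransferase gene (6.68 and 6.67, IR1 with 2 mismatches). Input was above the 95th percentile at the first WT site and at the first 2 LKO sites of this kind, and at the other WT sites it was 1.19 and 1.14, above the gap between the bands.

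Several LTR peaks were assigned to bile acid genes. Of 89 WT peaks assigned to the 26 bile acid genes listed, 9 were in LTRs (10.1%), at 7 genes, and of 55 LKO peaks 7 were (12.7%), at 5 genes, where all peaks gave 5.54% in WT and 4.48% in LKO. No interval was computed for the bile acid shares, which rest on few peaks, and they were not tested. All 7 LKO peaks overlapped one of the 9 WT peaks, so the lists do not give separate evidence. Akr1d1, the steroid reductase that acts in bile acid synthesis, had 3 LTR peaks in each list, all overlapping between the lists. The strongest of them was the intronic RLTR13D3A1 site, with IR1 of 1 mismatch in capitals in the sequence of the whole WT peak.
Akr1d1 (chr6:37543004-37543214, + strand): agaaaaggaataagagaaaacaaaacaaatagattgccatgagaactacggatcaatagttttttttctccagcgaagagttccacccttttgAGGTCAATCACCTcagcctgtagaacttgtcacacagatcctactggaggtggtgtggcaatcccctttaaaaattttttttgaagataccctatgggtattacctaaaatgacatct
Its log2 level was 6.36 and 6.70 in WT, with an input of -0.14, and 6.74 and 6.61 in LKO, with an input of 0.24. The other sites were ORR1D1, 74515 bp from the start (5.26 and 5.64 in WT, 4.78 and 4.73 in LKO, IR1 with 1 mismatch), and RMER5, 67254 bp from it (4.56 and 5.04 in WT, 5.22 and 4.64 in LKO).

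The remaining bile acid sites had no IR1 except the one at Cyp7b1. RMER6B in an intron of Cyp27a1, the mitochondrial sterol hydroxylase, had 6.98 and 7.49 in WT and 6.91 and 6.83 in LKO. The input at Cyp27a1 was 1.87 in WT, above the WT 95th percentile of 1.85, and 0.27 in LKO. RLTR13D2 near Slco1b2, a hepatic uptake transporter, had 5.87 and 6.77 in WT and 4.54 and 4.83 in LKO. RLTR19-int near Slc27a5, which activates bile acids, had 5.05 and 4.77 in WT and 5.65 and 5.35 in LKO. MERVL_2A-int, 19620 bp from the start of Nr1h4 itself, had 4.07 and 5.26 in WT and 4.50 and 3.25 in LKO. RMER15-int near Cyp7b1, an oxysterol hydroxylase gene (3.84 and 5.00), and ORR1F near Abcc4, an efflux transporter gene (2.97 and 4.95), were WT peaks with no LKO counterpart.

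The other gene lists varied in this share. Lipid and lipoprotein genes had 3 of 126 peaks in LTRs in WT and 3 of 84 in LKO, with Scarb1 the strongest. Nuclear receptor genes had 3 of 120 and 4 of 74, led by Nr1i2. Drug metabolism genes had 8 of 62 (12.9%, above the share of the bile acid list in WT) and 1 of 34 (2.94%). The one at Cyp3a11, a drug-metabolizing P450, lay in MTE-int and was the strongest and the single one in LKO (6.28 and 6.90 in WT, 6.25 and 6.21 in LKO). Coagulation and complement genes had 4 of 64 and 1 of 32, with the one at Masp1, a complement protease gene, the strongest in WT and the single one in LKO (RMER15, 4.92 and 5.45 in WT, 4.99 and 4.59 in LKO). Glucose genes had 1 of 74 and 1 of 45, an MLT1A1 site 265501 bp from Ppargc1a (4.96 and 6.47 in WT, 4.14 and 4.28 in LKO). The gene with most LTR peaks in WT was Mup20, a major urinary protein gene, with 4 weak sites in 4 different elements (means of 3.55 to 4.29), none shared with LKO. They lay in deciles 2 to 4 of strength, where 9.45% to 19.4% of WT LTR peaks were shared.

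To set the genotypes side by side, each log2 level was taken relative to the median of all 9918 overlapping pairs in the same library. On this relative scale both LKO values lay above both WT values in 29.8% of all pairs and below them in 25.2%. For the 451 pairs with a WT peak in an LTR the numbers were 155 above (34.4%) and 110 below (24.4%). The median relative difference, LKO minus WT, was 0.04 for LTR pairs (quartiles -0.34 and 0.48) and 0.03 for the rest (-0.32 to 0.41). By family the median was 0.15 for ERVK (61 of 152 pairs above, 31 below), 0.10 for ERVL (25 and 20 of 83), 0.02 for ERV1 (24 and 19 of 68) and -0.04 for ERVL-MaLR (44 and 39 of 144). These are sizes within the spread of single pairs, and they depend on a scale that assumes that the typical shared peak was bound alike in both genotypes.

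Among the subfamilies described, RMER10B and RLTR13D3A1 had the most pairs above. For the 19 RMER10B pairs the median relative difference was 0.52 (range -1.07 to 1.19), with 9 above and 1 below. The RMER10B library medians were -0.16 and -0.27 in WT and 0.09 and 0.00 in LKO. Among them Nodal, which encodes a secreted growth factor, had relative levels of 1.19 and 0.76 in WT and 1.57 and 1.87 in LKO. Rftn2 was -0.99 in both WT libraries and 0.09 and 0.13 in LKO. The pair near Etfbkmt went the other way, from 2.31 and 2.10 in WT to 0.95 and 1.31 in LKO.

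For the 15 RLTR13D3A1 pairs the median was 0.30 (range -2.26 to 1.11), with 8 above and 2 below. Akr1d1 stood at 1.35 and 1.16 in WT and 1.70 and 1.77 in LKO, and Acsf2, an acyl-CoA synthetase gene, at -1.28 and -1.43 and then -0.56 and -0.31. The site near Scp2, the sterol carrier protein, was the lowest of the 451 LTR pairs in this difference, with 0.80 and 1.68 in WT and -1.18 and -0.87 in LKO (-2.26, pooled SD 0.46, n = 2 per genotype). Its deposited log2 levels were 5.82 and 7.21 in WT and 3.86 and 3.98 in LKO, and its IR1 had 2 mismatches. Slco1b2 was lower in LKO as well, at 0.85 and 1.24 in WT and -0.50 and -0.02 in LKO. RLTR20C2_MM had 6 of 8 pairs above, and MTEa and MLTR14 had 5 of 8 and 5 of 9. LTR pairs with IR1 had a median of 0.19 (34 above and 19 below of 86) and those without it 0.02 (121 and 91 of 365).

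**Figure D5:**
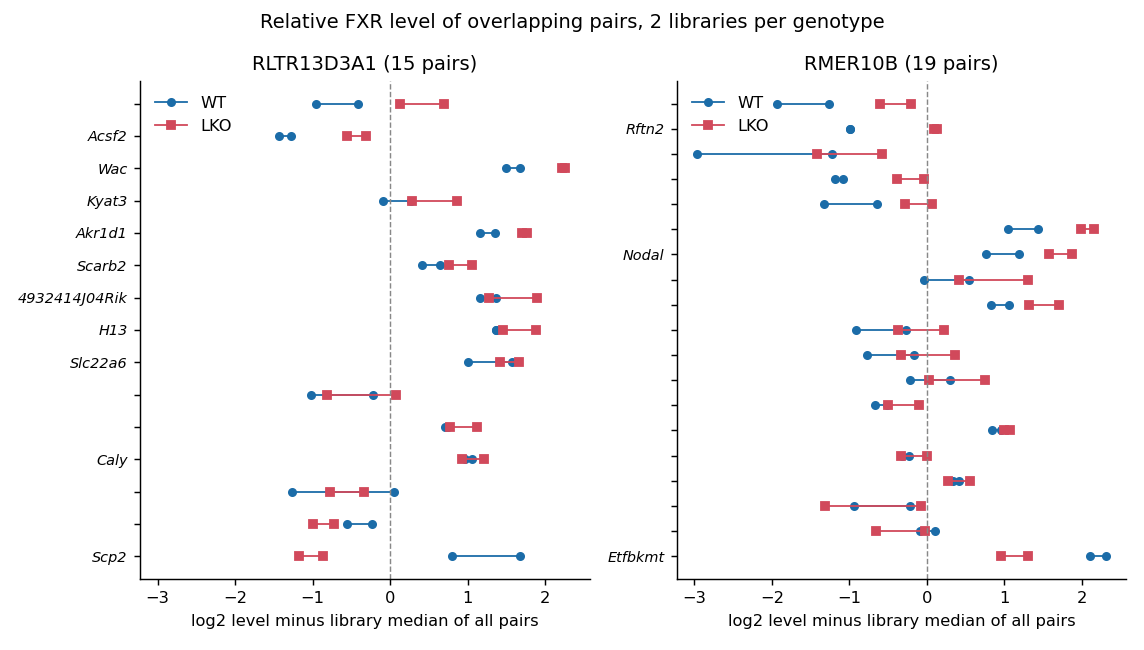
Relative FXR level of overlapping pairs in RLTR13D3A1 (left, 15 pairs) and RMER10B (right, 19 pairs; sites named in the text are labelled), as log2 level minus the median of all pairs in the same library (horizontal axis), sorted by the difference; each pair of joined points is the 2 libraries of WT (blue circles) or LKO (red squares). LKO lies wholly above WT in 8 and 9 pairs, and Scp2 and Etfbkmt lie farthest the other way.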

How the data were processed

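FXR ChIP-seq and input libraries of WT and LKO liver were grouped by their labels. Per the methods and the labels, the authors crosslinked chromatin with DSG and formaldehyde, aligned single-end reads to mm10 with Bowtie (1.2 in the submitters' processing notes), kept unique alignments and used HOMER (4.10) with at most 1 tag per position. The authors pooled the ChIP libraries of each genotype to call peaks against input, and kept those past a filter on enrichment over input. The deposited library values are regularized log2 tags, fitted per table, so the tables are not on a common scale. The deposited Peak Score is a signal and the deposited focus ratio a fraction, both from pooled libraries. The 3 columns of the authors' own comparison (log2 fold change, p-value and adjusted p-value of ChIP against input) were not used.

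LTR peaks, subfamily and family were read from the authors' annotation. Overlap, motif and strength steps were written in Python 3.11.15 with numpy 2.4.6, pandas 2.3.3 and numba 0.67.0, and tested on simulated data. Every one of the 32535 peaks lay inside the GRCm38.p6 chromosomes. Intervals are 95% Wilson intervals, and the limit for a share of 0 is 3 counts of the total. No p-value was computed, because each list has no replicate and had been filtered on the levels compared. Where replicates are averaged, nothing in the labels says that they came from separate mice. Members, lists and subfamilies were chosen with earlier results of these data known. Subfamilies named are the 10 with most WT peaks and, among those with 10 or more, the 5 with the highest IR1 share. Peaks named are the 5 strongest per list, the strongest shared one of each family with 20 or more WT peaks, the 3 strongest unshared and the 3 with highest input per list, those at bile acid genes, the 8 strongest with IR1 of at most 1 mismatch, and the strongest of each other gene list. Sites of RMER10B, RLTR13D3A1 and Mup20, the DR1 subfamilies and further subfamilies were added after their values were seen. Some sites are not reported here by name.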

Additional observations from a re-analysis of the deposited data

Results flagged for a closer look

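The level of LTR peaks relative to other peaks had opposite signs in the genotypes when taken from medians. The median log2 level of LTR peaks minus that of other peaks was -0.207 and -0.109 in the WT libraries and 0.006 and 0.013 in the LKO libraries. The difference between the genotypes was not tested, the LKO values are close to 0, and with means in place of medians the LKO difference was -0.02, the sign of WT.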

How the results depend on the processing

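Of 51 alternative values, 31 stayed within the interval or spread of the reported value, 19 moved beyond it and 1 changed sign. Restricting each list to peaks at or above its median strength gave 495 WT and 284 LKO members, overlap shares of 70.5% and 90.1%, IR1 shares of 17.8% and 24.3%, and level differences from other peaks of -0.05 and 0.00. Only 195 and 83 members were soft-masked over most of the peak in the assembly used, whose masking covered 22.3% and 21.1% of member centres. Membership rests on the authors' annotation alone, and why the masking covers few of these centres was not examined. With lists of the same length the overlap was 59.8% for WT and 66.4% for LKO members. The overlap shares of all peaks with lists of the same length, or at or above the median strength, were not computed. These overlap values therefore do not set LTR peaks apart from other peaks. At the 90th percentile of input the shares above were 6.76% and 8.57%. With at most 1 mismatch IR1 was found in 2.25% and 3.75%. The LKO level difference was -0.02 with means in place of medians, the value that changed sign, and 0.03 against peaks outside promoters. Chosen after seeing the data, leaving out RMER19B, RMER12 and MERV1_LTR gave DR1 shares of 11.8% and 11.1%, and leaving out RLTR13D3A1 gave IR1 shares of 11.4% and 15.8%. Leaving out 1 library at a time gave level differences of -0.21 to -0.11 in WT and of 0.01 in LKO, and relative differences of LTR pairs of 0.063 to 0.085. No paired analysis was possible because each list was called on pooled libraries and no comparison between samples was tested here. The depth of WT replicate 2, about 8 tags at the median LTR peak by the approximate conversion, limits the precision of its levels.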
